A study of Drosophila melanogaster with 2 samples.

Results

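The Hox protein Abd-B, carrying a tag, was mapped on chromatin around ct, ems, grn, salm and salr, the genes of 5 transcription factors that act downstream of Abd-B in the posterior spiracle of the Drosophila melanogaster embryo. The rule that chose them names the genes and uses no measured value, although earlier results of these data were known, and they are 5 of 13945 protein-coding genes on the 6 main chromosome arms. Peak lists came from chromatin immunoprecipitation and sequencing (ChIP-seq) of whole embryos aged 4 to 20 h, in a transgenic line whose Abd-B ends in green fluorescent protein (GFP) at the C-terminus, and chromatin was pulled down through the GFP. There was 1 group of 2 biological replicates, both with the tagged protein, so no comparison between conditions was possible. Spiracle cells are a small part of whole embryos over this span of ages, and the cells or stages in which a site was occupied cannot be told apart. The lists give positions and the authors' own values for each peak, a signal value of unstated scale and the −log10 of a q-value, and no read counts, so the depth is unknown.

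The posterior spiracle is the external opening of the larval tracheal system and forms in the eighth abdominal segment, where Abd-B is the Hox protein that specifies it. It has an inner tube, the spiracular chamber, whose cells invaginate and join the trachea, and an outer protrusion, the stigmatophore, which forms around the chamber as epidermal cells rearrange. Several regulators act downstream of Abd-B, of which ct and ems act in the chamber and salm and grn in the stigmatophore. These factors and the JAK-STAT pathway then act through genes of cell shape and adhesion.

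A gene's territory was taken as the gene body with 20 kb on either side, ending earlier where the next protein-coding gene began. The authors' list thresholded on the irreproducible discovery rate (IDR) holds 5033 peaks, which are the strongest of the pooled list, and 14 of their summits lay in the 5 territories. The territories of ems and grn held 4 summits each and those of ct and salm 3 each, while that of salr held 0. Thus 4 of the 5 genes had an IDR summit, against 40.5% of all protein-coding genes. Territories of the 5 genes were long, from 42.8 kb at ems to 93.9 kb at ct, and the median over all protein-coding genes was 6.83 kb. Among the 708 genes whose territory was at least as long as that of ems, 68.6% had an IDR summit, so 4 of 5 is near the background of genes with such territories. The 5 territories held 4.52 IDR summits per 100 kb, the territories of all protein-coding genes 4.00 and the main arms 3.76.

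**Figure D1:**
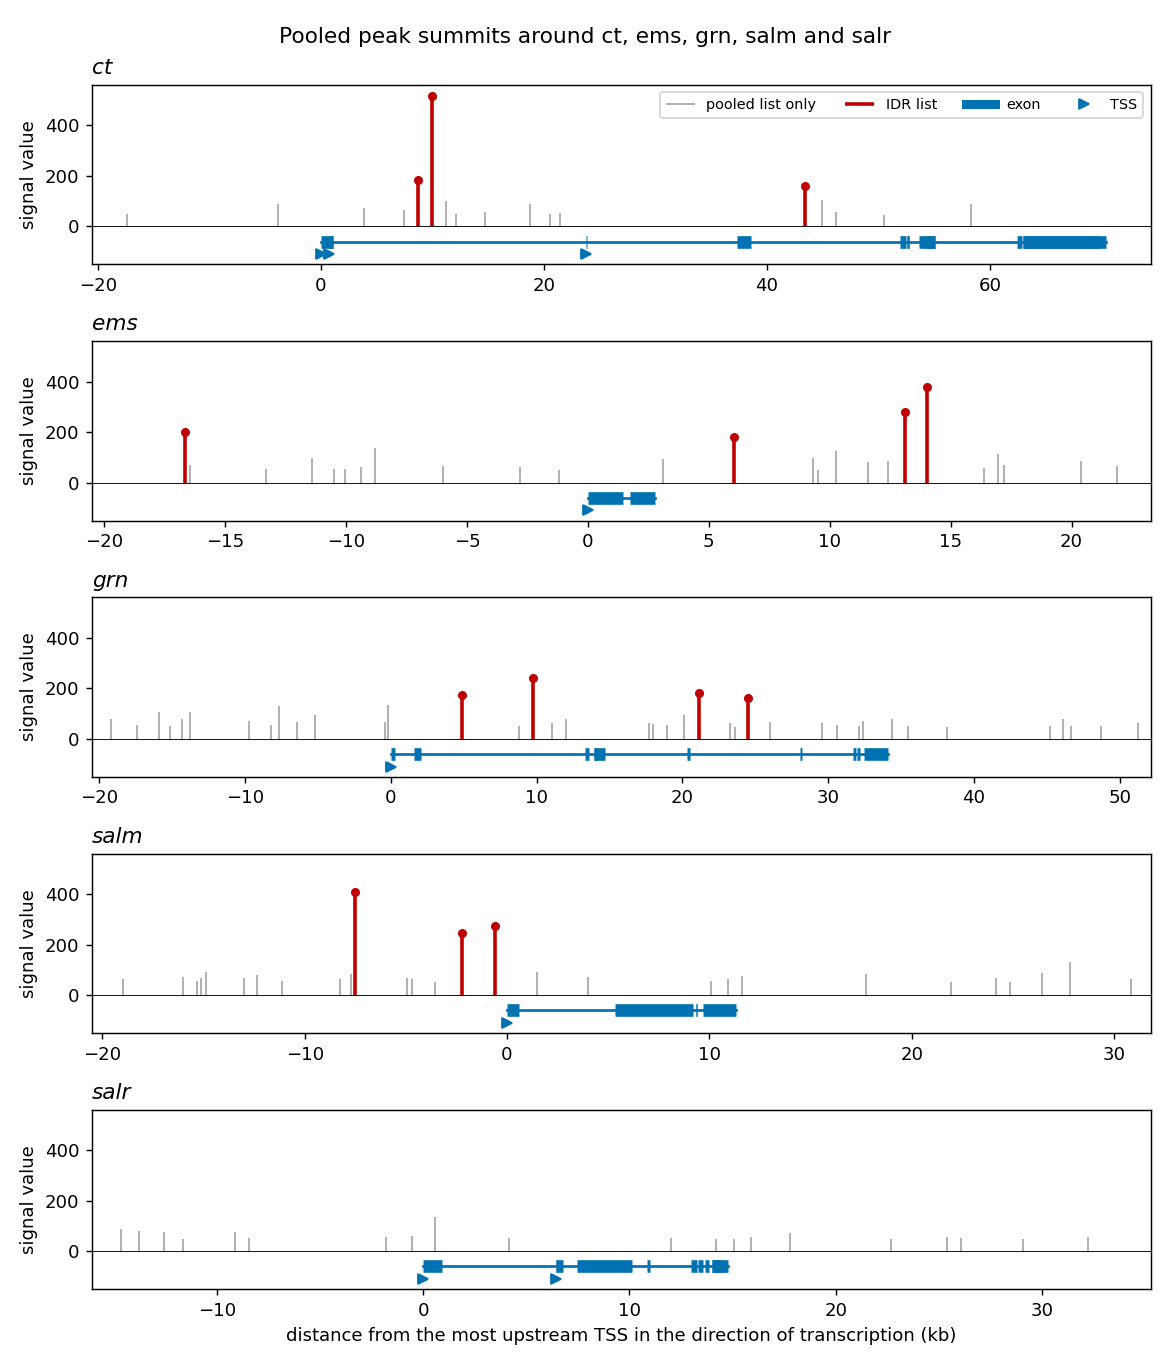
Pooled peak summits in the territories of the 5 genes, with the distance from the most upstream transcription start site (TSS) in kb on the x axis and the authors' signal value on the y axis. Red stems with dots ("IDR list" in the legend) are the 14 IDR summits, grey stems ("pooled list only") the 115 weaker pooled summits, blue boxes exons and arrowheads TSSs. The red stems lie inside ct and grn, on both sides of ems and upstream of salm, and none lies at salr.

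These 9 sequences are the 201 bases around the strongest summit at each gene and around the other IDR summits that hold the Abd-B motif, shown so that the sites themselves can be compared. They were read from the RefSeq sequence of the dm6 assembly on the plus strand, 5′ to 3′, with the summit at the middle base. Capitals mark each match to TTTATGG or TTTATTG, the forms of the Abd-B motif searched, on either strand (CCATAAA and CAATAAA are their reverse complements). The rank is that of the peak by signal value in the pooled list, and the salr site lies below the IDR list.
ct rank 798, chrX:7618269-7618469: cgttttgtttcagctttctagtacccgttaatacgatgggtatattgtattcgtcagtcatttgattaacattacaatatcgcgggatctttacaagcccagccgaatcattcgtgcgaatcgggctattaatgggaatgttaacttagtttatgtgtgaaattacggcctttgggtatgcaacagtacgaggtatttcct
ct rank 3996, chrX:7617016-7617216: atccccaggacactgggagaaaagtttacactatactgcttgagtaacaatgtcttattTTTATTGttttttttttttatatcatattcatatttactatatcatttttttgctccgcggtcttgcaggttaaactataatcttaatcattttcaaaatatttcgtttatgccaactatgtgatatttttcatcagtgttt
ems rank 1401, chr3R:13915776-13915976: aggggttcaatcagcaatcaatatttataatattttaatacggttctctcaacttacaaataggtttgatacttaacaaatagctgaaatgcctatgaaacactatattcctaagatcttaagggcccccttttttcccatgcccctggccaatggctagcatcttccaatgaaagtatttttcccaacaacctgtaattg
grn rank 2780, chr3R:8171611-8171811: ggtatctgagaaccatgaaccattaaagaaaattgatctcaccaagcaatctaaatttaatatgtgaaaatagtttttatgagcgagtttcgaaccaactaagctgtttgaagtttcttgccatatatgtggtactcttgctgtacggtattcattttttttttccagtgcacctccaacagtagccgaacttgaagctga
grn rank 4036, chr3R:8160201-8160401: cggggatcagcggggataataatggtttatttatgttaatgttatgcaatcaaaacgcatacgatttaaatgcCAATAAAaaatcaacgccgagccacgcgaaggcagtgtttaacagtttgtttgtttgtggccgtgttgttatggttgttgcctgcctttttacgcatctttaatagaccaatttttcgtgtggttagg
grn rank 4736, chr3R:8156829-8157029: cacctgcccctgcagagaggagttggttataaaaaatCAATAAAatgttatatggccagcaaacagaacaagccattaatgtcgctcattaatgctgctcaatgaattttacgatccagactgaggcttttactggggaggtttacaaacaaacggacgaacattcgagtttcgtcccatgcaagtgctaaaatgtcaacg
salm rank 1223, chr2L:11453042-11453242: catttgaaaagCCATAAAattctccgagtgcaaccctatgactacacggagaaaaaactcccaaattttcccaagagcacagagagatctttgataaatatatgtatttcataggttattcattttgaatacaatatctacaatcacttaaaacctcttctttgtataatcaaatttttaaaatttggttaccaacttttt
salm rank 2312, chr2L:11446116-11446316: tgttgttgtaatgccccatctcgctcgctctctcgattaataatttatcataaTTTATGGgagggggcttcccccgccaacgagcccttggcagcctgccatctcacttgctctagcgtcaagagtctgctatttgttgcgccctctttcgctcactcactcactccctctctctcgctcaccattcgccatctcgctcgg
salr rank 5846, chr2L:11359334-11359534: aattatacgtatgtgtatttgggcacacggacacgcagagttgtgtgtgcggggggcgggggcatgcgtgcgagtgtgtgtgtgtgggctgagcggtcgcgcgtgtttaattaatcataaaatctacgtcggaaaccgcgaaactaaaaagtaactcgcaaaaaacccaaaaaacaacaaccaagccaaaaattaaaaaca

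The Abd-B motif lay within 100 bp of 5 of the 14 IDR summits (35.7%), against 19.2% of all IDR summits and 10.7% of windows of the same length at the outermost TSS of each protein-coding gene. Of the 5, 1 was at ct (rank 3996), 2 at grn (ranks 4036 and 4736) and 2 at salm (ranks 1223 and 2312). The middle of the match stood between 24 bp from the summit (grn, rank 4036) and 86 bp from it (salm, rank 1223). The 4 ems summits had no match, and nor had the strongest summit at ct or at grn. The share rests on 5 windows and was not tested.

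Of the other motifs, TTTATG, bound by the posterior homeodomain protein Caudal and contained in the TTTATGG form of the Abd-B motif, lay at 6 of the 14 summits (42.9%), against 28.4% of all IDR summits and 15.0% of promoter windows. At both salm summits it was that same match. GAGAG, bound by GAGA factor, also lay at 6 of 14 (42.9%), against 20.1% of all IDR summits and 22.5% of promoter windows. It was most repeated at salm, whose 3 summits held 10 matches, some of them overlapping. The homeodomain core TAATTA lay at 0 of 14, against 19.5% of all IDR summits and 9.95% of promoter windows. Neither the DREF motif TATCGATA, at 4.09% of all IDR summits and 7.84% of promoter windows, nor the STAT motif TTCNNNGAA, at 5.52% and 6.17%, lay at any of the 14. A match or its absence describes only the letters in these windows. The GC content of the 14 windows ran from 27.9% (ems, rank 4086) to 53.2% (salm, rank 2312) with a median of 37.3%, against a median of 33.8% over all IDR summits.

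**Figure D2:**
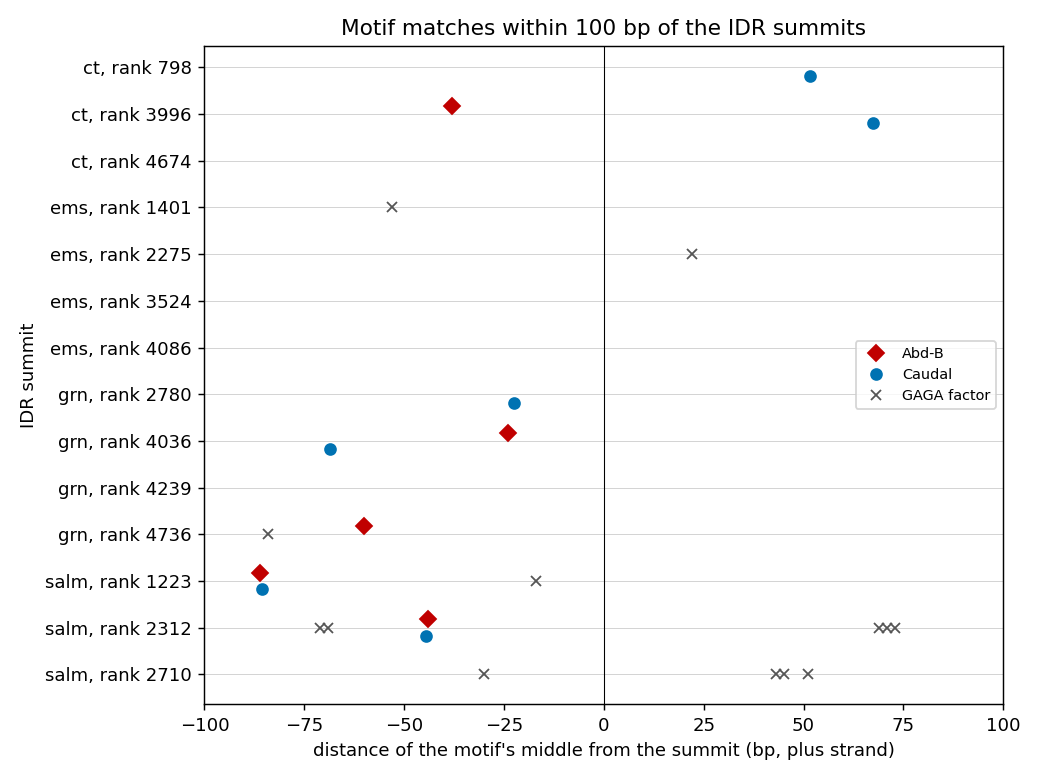
Positions of motif matches around the 14 IDR summits, with the distance of the motif's middle from the summit in bp on the x axis and 1 row per summit. Red diamonds are the Abd-B motif, blue circles the Caudal motif and grey crosses GAGAG. The 5 rows with a diamond belong to ct, grn and salm, and 4 rows (1 at ct, 2 at ems and 1 at grn) hold no match.

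Most of the 14 summits were far from the start of their gene. A single one, at salm, lay within 1 kb of a TSS of its own gene, and 11 lay over 5 kb away, with a median of 9477 bp and a largest distance of 24515 bp (grn). By annotation, 8 were in introns (7 of them in ct or grn and 1 in a noncoding RNA gene upstream of salm), 5 between genes and 1 within 500 bp of a TSS, which was that of the same noncoding RNA. Of all IDR summits 48.6% lay within 500 bp of a TSS. In the 708 long territories, where a summit counted for each gene whose territory held it, that share was 23.4%. Of those summits, 19.7% lay within 1 kb of a TSS of the gene itself. The share of 1 in 14 therefore stands beside a background of long territories in which proximal summits are also the minority. Counted by gene, 1 of the 5 (salm) had such a proximal summit, against 25.0% of all protein-coding genes.

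Each of the 14 summits had a partner within 100 bp in the full list of both replicates, as had 92.1% of all IDR summits. The IDR list was made from these replicates, so this support is a description. Against the 5033 strongest peaks of each replicate, 10 of the 14 were found in replicate 1, 12 in replicate 2 and 8 in both. Of all IDR summits, 79.1% were found in this way in replicate 1, 89.2% in replicate 2 and 70.1% in both. Their pooled ranks ran from 798 to 4736 with a median of 3152, and the middle rank of the whole list is 2517. Of the 14, 5 were among the 2516 strongest IDR peaks and 9 were not. Replicate 1 gave the higher rank to 6 of them and replicate 2 to 8.

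**Figure D3:**
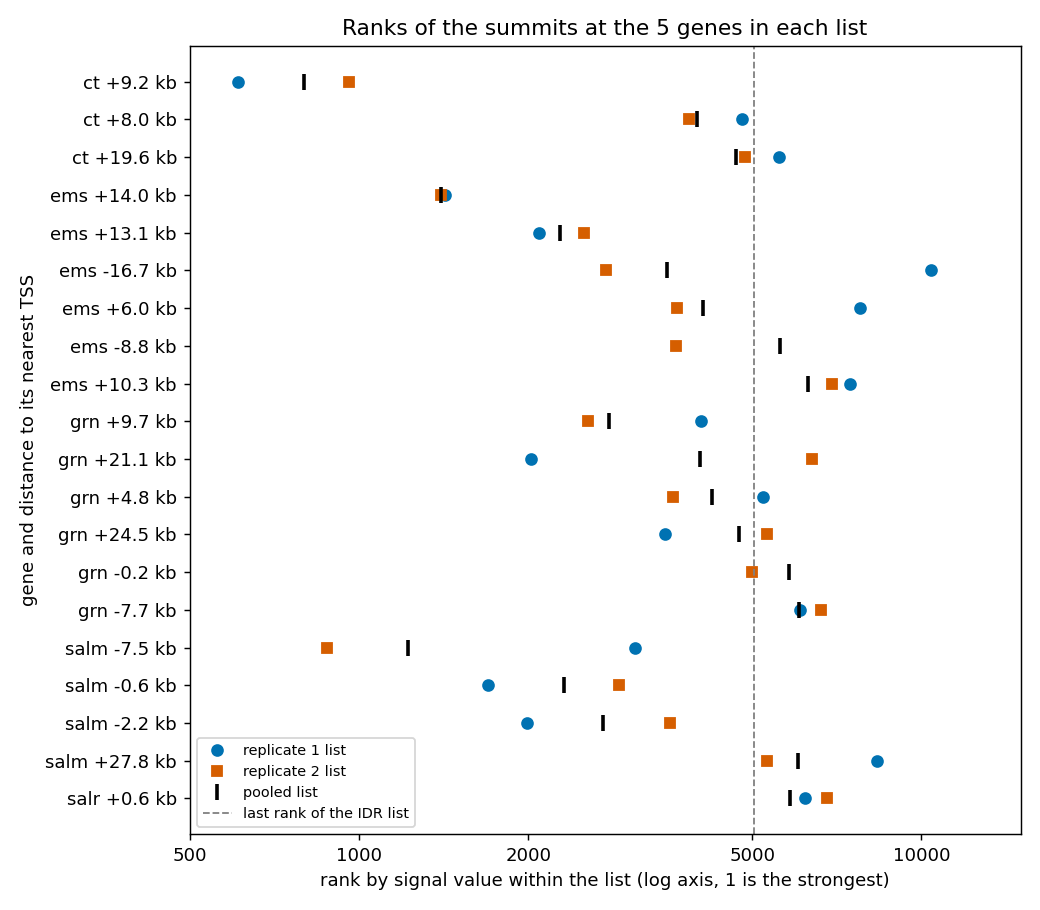
Ranks of the 20 pooled summits at the 5 genes with an authors' q-value of 0.05 or less, named by the distance to the nearest TSS of the gene (negative is upstream). The x axis is the rank within each list on a log scale, circles are replicate 1, squares replicate 2 and bars the pooled list, and the dashed line is the last rank of the IDR list, 5033. A missing circle means no replicate 1 summit within 100 bp. The replicates lie close at the strongest summits of ct and ems and far apart at ems 16.7 kb upstream and grn 21.1 kb downstream.

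The homeodomain gene ct (FBgn0004198), needed for the filter hairs of the spiracular chamber, occupies chrX:7608428-7678859 on the plus strand and has 3 annotated TSSs. Its 3 IDR summits lay inside the gene. The strongest, in the peak at chrX:7618267-7618511, had a pooled signal value of 517 and ranked 798 in the pooled list, 609 in replicate 1 and 961 in replicate 2. It lay in the first intron, 9941 bp and 9221 bp downstream of the first 2 TSSs and 13853 bp upstream of the third. It was the strongest summit at any of the 5 genes in the pooled list and in replicate 1.

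A second ct summit lay 1253 bp nearer to the start of the gene, in the peak at chrX:7616921-7617310, and held the TTTATTG match shown in capitals. It ranked 3996 in the pooled list, 4805 in replicate 1 and 3854 in replicate 2. The third, in the peak at chrX:7651628-7652017, lay 19601 bp downstream of the third TSS and ranked 4674, 5582 and 4863 in the same lists. Its replicate 1 rank is beyond 5033, so the count for ct was 2 in the replicate 1 list cut to that length. The 20 kb upstream of ct held 0 IDR summits, and the strongest pooled summit of ct below the IDR list, rank 7930, again lay inside the gene.

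The homeobox gene ems (FBgn0000576), empty spiracles, is named for its mutant phenotype, in which the spiracular chamber does not form properly and is not linked to the trachea. It is a compact gene of 2768 bp at chr3R:13901853-13904620 on the plus strand, with 1 TSS and with more than 20 kb free of protein-coding genes on either side. None of its 4 IDR summits lay in the gene: 3 were downstream and 1 upstream. The strongest pair stood 903 bp apart, 14023 bp and 13120 bp downstream of the TSS. The stronger of them, in the peak at chr3R:13915795-13915936, had a signal value of 378 and ranked 1401 in the pooled list, 1421 in replicate 1 and 1398 in replicate 2. Its neighbour at chr3R:13914778-13915167 ranked 2275, 2086 and 2512 in these lists, so the replicates placed both closely.

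At the other ems summits the replicates were far apart. The upstream summit, in the peak at chr3R:13885001-13885390, lay 16657 bp before the ems TSS but 10280 bp from that of E5, a related homeobox gene, and ranked 3524 in the pooled list. It ranked 10381 in replicate 1, where the authors' −log10 q-value was 0.248, and 2753 in replicate 2, where it was 3.94. The summit 6033 bp downstream of the TSS ranked 4086 in the pooled list, 7780 in replicate 1 (−log10 q-value 0.442) and 3677 in replicate 2 (3.94). Both ranked higher in replicate 2. With 9.35 IDR summits per 100 kb, ems had the densest territory of the 5 genes, but 3 of its 4 summits were over 10 kb from the gene, and a flank of 10 kb left 1.

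The GATA factor gene grn (FBgn0001138), which is needed for the stigmatophore to elongate, lies at chr3R:8147368-8181444 on the minus strand and has 1 TSS. It held 4 IDR summits, each in an intron, 4841, 9733, 21143 and 24515 bp downstream of the TSS. The strongest, in the peak at chr3R:8171516-8171905 in intron 2, had a signal value of 241 and ranked 2780 in the pooled list, 4052 in replicate 1 and 2551 in replicate 2. The other summit in intron 2, at chr3R:8176408-8176797, ranked 4239, 5234 and 3609 in these lists. No grn summit was among the 2516 strongest IDR peaks.

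The 2 summits in intron 5 of grn hold the CAATAAA matches shown in capitals. The one at chr3R:8160106-8160495 ranked 4036 in the pooled list, 2026 in replicate 1 and 6386 in replicate 2. The one at chr3R:8156734-8157123 ranked 4736, 3495 and 5317. These were the grn summits that replicate 1 ranked higher, whereas those in intron 2 ranked higher in replicate 2.

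The grn promoter itself carried a weaker summit just outside the IDR list. It lay 173 bp upstream of the TSS, ranked 5816 in the pooled list with an authors' q-value of 0.0209, and ranked 4999 in replicate 2. The nearest replicate 1 summit was 190 bp away, beyond the limit of 100 bp for a partner. In the replicate 2 list cut to 5033 peaks, 2 of the 5 genes, grn and salm, had a summit at most 1 kb from a TSS.

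The zinc finger genes salm (FBgn0261648) and salr (FBgn0000287) are neighbouring copies that form the spalt complex, with 60.7 kb between them on chromosome 2L. At salm, which patterns the stigmatophore, the 3 IDR summits lay upstream of its single TSS. The strongest, in the peak at chr2L:11453041-11453248, was 7528 bp upstream, had a signal value of 408 and ranked 1223 in the pooled list, 3097 in replicate 1 and 878 in replicate 2. It was the strongest summit at any of the 5 genes in replicate 2, and it lay in an intron of the noncoding RNA gene lncRNA:CR46454, which runs away from salm on the opposite strand.

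The promoter-proximal salm summit, in the peak at chr2L:11446021-11446410, was 602 bp upstream and held the TTTATGG match shown in capitals. It ranked 2312 in the pooled list, 1699 in replicate 1 and 2899 in replicate 2. The third, at chr2L:11447640-11448029, was 2221 bp upstream of salm and 232 bp upstream of the TSS of lncRNA:CR46454, and ranked 2710, 1991 and 3566. It could equally be counted for the noncoding RNA. The salm gene, at chr2L:11434311-11445614 on the minus strand, held 0 IDR summits in its body and 0 in the 20 kb downstream, which point towards salr.

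At salr, at chr2L:11358873-11373636 on the plus strand, 0 IDR summits lay in the 50.3 kb territory. On the side away from salm the nearest was 27.0 kb beyond the gene, and on the side of salm it was 72.6 kb away, at the salm promoter, so the whole stretch between the 2 genes held none. Among the 708 long territories 31.4% also held 0. The strongest pooled summit at salr, in the peak at chr2L:11359239-11359628, lay in the first exon, 561 bp downstream of the first TSS and 5855 bp upstream of the other. It had a signal value of 134, below the lowest of the IDR list (153), ranked 5846 in the pooled list with an authors' q-value of 0.0215, and had partners at rank 6218 in replicate 1 and 6805 in replicate 2. The −log10 of the authors' q-value was 0.671 in replicate 1 and 2.07 in replicate 2, so the summit passed a q of 0.05 in replicate 2 and the pooled list and not in replicate 1. The lists differ in this as a whole, since 4333 peaks of replicate 1 and 8557 of replicate 2 passed that q. By rank, the salr summit stood slightly higher in replicate 1.

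Below the IDR list the pooled list held 115 further summits in the 5 territories, of which 45 had a partner in both replicates and 6 had a q-value of 0.05 or less. Of all 24966 pooled summits below the IDR list, 32.1% had a partner in both replicates and 6.58% had such a q-value. The 6 at these genes were the promoter-proximal summits of grn and salr, 1 more at grn 7700 bp upstream, 2 at ems, 8818 bp upstream and 10268 bp downstream, and 1 at salm, 27846 bp downstream of its TSS. They ranked between 5594 and 6289. The ems summit 8818 bp upstream had no partner in replicate 1, whose nearest summit was 607 bp away. Counted at this q-value, 5 of the 5 genes had a summit in their territory, against 46.0% of all protein-coding genes and 74.4% of those with long territories. At the same q-value, 3 of the 5 (grn, salm and salr) had a promoter-proximal one, up to 1 kb from a TSS, against 28.8% of all protein-coding genes.

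**Figure D4:**
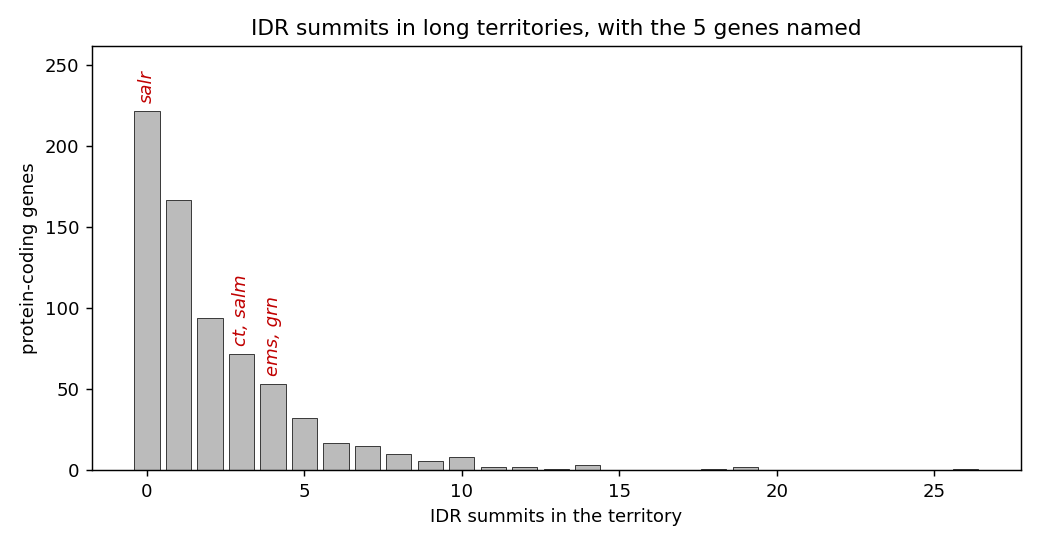
Number of IDR summits (x axis) in the 708 territories at least as long as that of ems, with the number of protein-coding genes on the y axis and the 5 genes named above their bars. The 5 genes fall in the bars at 0, 3 and 4 summits, and the tail reaches 26.

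Beside other genes with long territories, the counts of 3 and 4 were above the median of 1 but not at the extreme. Fewer than 3 IDR summits were held by 68.2% of the 708 territories and exactly 3 by 10.2%, and fewer than 4 were held by 78.4% and exactly 4 by 7.49%.

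Other genes of the posterior spiracle were taken from a list of 28. It includes Abd-B itself, grouped with upstream factors and partners. The other groups are the JAK-STAT pathway, segment polarity and EGFR signals, effectors of cell shape and adhesion, and tracheal regulators. An IDR summit lay in the territory of 19 of the 28 (67.9%), against 40.5% of all protein-coding genes, and within 1 kb of a TSS in 13 (46.4%), against 25.0%. Most of the 28 territories were longer than the median over all protein-coding genes, 6.83 kb, so these shares are not matched for length. All 9 genes with a territory at least as long as that of ems had an IDR summit in it, against 68.6% of such genes. The effectors had IDR summits at 6 of 8 genes and within 1 kb of a TSS at 5, the upstream factors at 4 of 5 and 3, the segment polarity and EGFR genes at 4 of 6 and 3, the JAK-STAT genes at 3 of 6 and 1 (the neighbours upd1 and upd3 share a single summit), and the tracheal genes at 2 of 3 and 1.

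In this list the EGFR ligand gene spi had the strongest summit, rank 160, 209 bp upstream of a TSS, and 5 IDR summits in all. Abd-B itself had 18 (best rank 496) and the Hox cofactor gene hth 19 (best rank 587). Of the effectors, the cadherin gene Cad86C had 2 (best rank 592) and the cell shape gene cv-c 12 (best rank 796). Stat92E, the transcription factor of the JAK-STAT pathway, had 1, rank 723, at 930 bp from a TSS. The POU factor gene vvl had 4 (best rank 876). Genes with 0 were exd, upd2, dome, hop, hh, Egfr, Cad88C, Cad74A and kni. None of the 5 regulators reached the rank of the strongest summit at spi, Abd-B, hth, Cad86C, Stat92E or cv-c, and the strongest of ct (rank 798) stood next to that of cv-c.

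**Figure D5:**
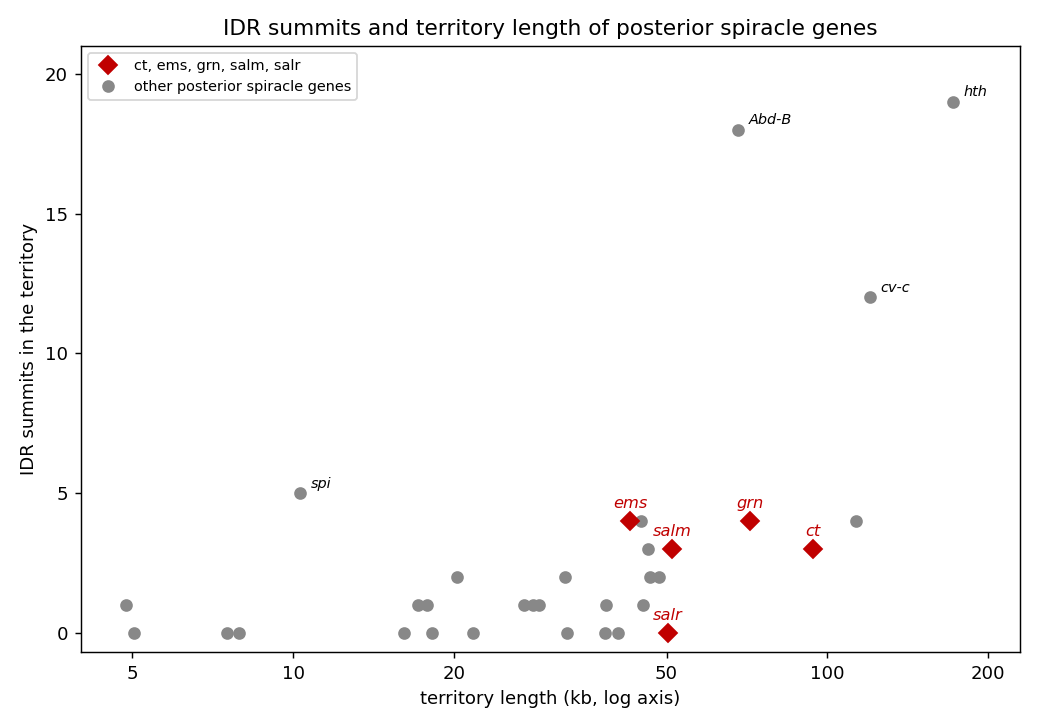
Number of IDR summits in the territory (y axis) against territory length in kb (x axis, log scale). Red diamonds are the 5 genes, grey circles the 28 other posterior spiracle genes, of which those with 5 or more summits are named. The 5 genes lie between 42.8 and 93.9 kb with 0 to 4 summits, below Abd-B, hth and cv-c.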

How the data were processed

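The data were 4 ChIP-seq peak lists of Abd-B-GFP embryos, on assembly dm6 per the labels. They comprise a list for each replicate, a pooled list and an optimal IDR list. Per the deposited text descriptions, the authors called each replicate on its own alignment against a control, pooled both alignments for the pooled list, and derived the IDR list from the other 3. Not given in the sources used here are peak caller, aligner and depth. The deposited signal value of the authors is a score of unstated scale that served to order peaks inside each list, and the deposited −log10 of the q-value is capped, at 3.82 in the pooled and IDR lists. The summit offset is the authors' deposited distance from the peak's start. Coordinates count from 1.

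Ties in signal value were ordered by q-value and then by position, and 1 peak of the pooled and 1 of the replicate 2 list outside the main arms were left out. Genes and TSSs came from the Ensembl release 115 annotation (BDGP 6.54), and all 28 symbols of the gene list matched directly. Motif matches were exact, on both strands and wholly within 201 bases around the summit, with palindromes counted once. The genes named were the 5 with each IDR summit, their strongest weaker summits, neighbouring genes, and the other spiracle genes with the 8 highest ranked summits (1 of which is not reported here) or with none. The 5 genes, the list and the motifs were chosen with earlier results of these data known, so no test was made and values are set beside those of all genes or all IDR summits. Alternatives were other flanks, neighbours, distances and peak lists, and each replicate alone. Counting functions were checked on simulated data. The work was done in Python (3.11.15) with pandas (2.3.3), numpy (2.4.6) and matplotlib (3.10.9).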

Additional observations from a re-analysis of the deposited data

How the results depend on the processing

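The absence of an IDR summit at salr held under each alternative that used IDR peaks or 1 replicate alone. The number of the 5 genes with a summit, 4 in the main count, stayed 4 with either replicate left out, was 2 in gene bodies alone (with 7 summits, and with 12 of the other spiracle genes instead of 19) and 3 among the 2516 strongest IDR peaks, which held 5 of the 14 summits. The 14 summits became 13 to 14 with 1 replicate left out. Per 100 kb, 4.52 became 4.85 with a 10 kb flank, 3.86 with flanks up to the next protein-coding gene, 5.05 with flanks that stop at any annotated gene, 5.25 in gene bodies, 6.45 in the pooled list at a q-value of 0.05 or less, 1.61 among the 2516 strongest IDR peaks, and 4.19 to 4.52 with 1 replicate left out. These lists and windows differ in size, which changes the count by construction. Shares of all protein-coding genes are not given for gene bodies or for the 2516 strongest IDR peaks, so those counts have no background.

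Genes with a summit within 1 kb of a TSS numbered 1, but 0 within 500 bp, 2 within 5 kb, 3 in the pooled list at a q-value of 0.05 or less, and 1 to 2 with 1 replicate left out. Partners in both replicates, found for 14 of 14 summits, were found for 7 within 50 bp and for 8 among the strongest 5033 peaks of each list. Of all IDR summits 70.1% had partners among these strongest peaks, and no such share is given for 50 bp. The Abd-B motif lay at 5 summits within 100 bp, at 3 within 50 bp and still at 5 in a window wider than 100 bp. The share of all IDR summits with the motif is given only for 100 bp. Whether the contrast with that share holds in the narrower or wider window was not tested. Depth is unknown, so a missing peak does not show that a site was unbound.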

Other observations

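With the 20 kb limit lifted, 3 more IDR summits lay between these genes and the next protein-coding gene. At ems, 1 was 27.8 kb downstream of the TSS (rank 4734 in the pooled list, 4346 in replicate 1 and 5167 in replicate 2). Another was 26.5 kb upstream of ems (ranks 4916, 6172 and 4945) and 405 bp upstream of a TSS of E5, so it lay at the promoter of that neighbouring homeobox gene. At salm, 1 was 26.5 kb upstream (ranks 4124, 4027 and 4484), between genes, 5981 bp downstream of a TSS of lncRNA:CR46454 and beyond the end of that gene. Each had a partner within 100 bp in both replicates.

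The stretch of 60.7 kb between salr and salm held 1 pooled summit at a q-value of 0.05 or less, rank 6032, 44.1 kb from the end of salr and 16.5 kb from that of salm. It is the weaker salm summit already counted above, 27846 bp downstream of the salm TSS.

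The peaks of the strongest summits at ct, ems and salm were narrow, 245, 142 and 208 bp wide, and the other 11 IDR peaks at these genes were each 390 bp wide, the width of 66.4% of all IDR peaks.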
